A study of Homo sapiens with 6 samples.

Results

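The proteins that build ribosomes and guide RNA modification in the nucleolus were followed at the transcript level in human cells held in mitosis. The members were the rows of the deposited gene table whose symbol is one of 46 names of RNA polymerase I factors, nucleolar scaffold proteins, small nucleolar ribonucleoprotein (snoRNP) core proteins and assembly factors of the 40S and 60S subunits. They came to 41 rows of 37879, standing for 40 genes, because the H/ACA protein GAR1 has a pair of rows (GAR1 and, under an older symbol, NOLA1). NOP16 and RRP1 had no row under the names used. All samples were total RNA of HEK293T cells (an established human embryonic kidney line with the SV40 large T antigen), treated with nocodazole at 50 ng/ml for 15 h per the labels and labelled as prometaphase. The 3 control samples came from cells transfected with the empty vector and the 3 Stau1 samples from cells given a plasmid for Stau155-FLAG, a FLAG-tagged isoform of Staufen1, which the methods place under a Rous sarcoma virus promoter. The methods give another time in nocodazole than the labels. Nothing in the labels says that the samples of a group came from separate cultures, so the p-values measure only the spread between these samples, which may be technical.

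Ribosomes begin in the nucleolus, where RNA polymerase I copies the ribosomal DNA into a long precursor. The upstream binding factor UBTF opens and marks the ribosomal genes, the selectivity factor made of TAF1A to TAF1D with the TATA-binding protein sits at their promoter, and RRN3 brings the polymerase to it. Box C/D snoRNPs then methylate the precursor and box H/ACA snoRNPs turn chosen uridines into pseudouridine, while large complexes fold and cut it into the RNAs of the small and the large subunit. In mitosis this activity stops and the nucleolus comes apart, to be rebuilt as the cells leave mitosis. Staufen1 binds double-stranded RNA and ribosomes, and the study compared the transcripts of prometaphase cells with and without the added protein.

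Transcript level was measured as log2 intensity on an Illumina bead array, after background correction and quantile normalization. A row was kept where its detection p, a comparison with negative control beads, was under 0.05 on at least 3 of the 6 arrays, which left 13285 rows. For rows that average several probes the deposited detection p is a combined value that need not follow the intensity. Such a row can therefore fail the filter without being dim. Of the 41 member rows 40 were kept, for 39 genes. The row left out was POLR1A. Probes differ in brightness, so levels of different genes are not set against each other below. Median intensity per array ranged from 83.0 to 102.2, 12730 to 13469 rows per array were detected, and the median bead number was 40 to 41. The mitotic transcripts checked (CCNB1, PLK1, AURKA, CDC20, CCNA2 and BUB1) were detected on all 6 arrays, as were NEFL, NEFM and INA, neuronal transcripts for which HEK293 cells are known. Of 6 markers of other cell types 5 were detected on no array, and PECAM1 was detected on all 6 at a log2 intensity of 6.01 to 6.53. The share of cells in prometaphase and the amount of a transcript per cell cannot be told apart in such samples. STAU1 itself read 11.19, 11.38 and 11.36 on the control arrays and 11.39, 11.51 and 11.47 on the Stau1 arrays. The difference was 0.15 (log2, SE 0.09, limma, adjusted p = 0.999; exact two-sided permutation p = 0.1, the smallest that 3 against 3 arrays can give). Where the probes of that row lie was not analysed, so how far it reads the plasmid is not known.

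Promoters of these genes were searched for 4 short sequences, and stretches with the E-box are shown because that sequence differed most in relative frequency from all genes with a window. A RefSeq promoter window (GRCh38.p14, 250 bases before to 50 after an annotated start) was found for 33 of the 40 genes. Windows were given for 27305 genes, non-coding ones included, of which 15843 were protein-coding. The E-box CACGTG, read the same on both strands and bound by MYC and related factors, was present in a window of 13 of the 33 member genes (39.4%), of 8.77% of all genes and of 10.9% of protein-coding genes. The letters CCGGAAG on either strand, the core of many ETS factor sites, were present for 14 of the 33 (42.4%), against 12.2% of all and 16.5% of protein-coding genes. The NRF1 motif, GCGC and TGCGC parted by any 1 base, on either strand was present for 8 (24.2%), against 6.98% of all and 9.67% of protein-coding genes. The GC box GGGCGG on either strand was present for 21 (63.6%), against 48.3% of all and 64.3% of protein-coding genes. No pair of these motifs overlapped in a member window. A match is a description of the letters and not evidence of binding, and the motifs were searched with earlier results of these data known. Below are 100 bases around the start, 50 on each side, for the genes with an E-box in that stretch that are described in full (FBL, GAR1 and PES1), given 5′ to 3′ in the direction of the gene, with the E-box in capitals.
FBL, chr19:39846330-39846429, minus strand: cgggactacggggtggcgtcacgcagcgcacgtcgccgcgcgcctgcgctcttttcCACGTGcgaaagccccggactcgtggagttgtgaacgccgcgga
GAR1, chr4:109815712-109815811, plus strand: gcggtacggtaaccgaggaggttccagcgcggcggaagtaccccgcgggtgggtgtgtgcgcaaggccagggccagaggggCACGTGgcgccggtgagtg
PES1, chr22:30591861-30591960, minus strand: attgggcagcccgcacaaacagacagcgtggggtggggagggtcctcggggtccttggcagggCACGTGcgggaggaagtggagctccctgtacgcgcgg
The E-box begins 6 bases past the start in FBL, 31 past it in GAR1 and 13 past it in PES1. The other genes with an E-box were BYSL, DDX21, EBNA1BP2, GNL3, IMP4, NOP10, NOP2, RRP9, UTP14A and WDR43. In the comparison described next, over the 14 kept rows of genes with one, the log2 change (Stau1 minus control) had a median of 0.08 and ran from -0.08 to 0.30, and over the 19 kept rows of genes with a window but no E-box it had a median of 0.04 and ran from -0.10 to 0.35.

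No member passed the test between Stau1 and control cells. With limma and Benjamini-Hochberg adjustment over all 13285 kept rows, 0 of the 40 kept member rows had an adjusted p under 0.05, and the lowest adjusted p among them was 0.999. Over all kept rows 0 were called as well (0%). At an unadjusted p under 0.05 limma gave 1 member row higher with Stau1, UBTF, beside 2.4% of all kept rows, and 0 member rows lower, beside 1.32% of all kept rows. The methods' t-test on the same values also called 0 member rows after adjustment and gave 3 of 40 at an unadjusted p under 0.05, beside 464 of all 13285 kept rows. Changes were small and leaned to higher values: 29 of the 40 rows were above 0 and 11 below (72.5% above 0, against 49.4% of all kept rows), with a median of 0.06 against -0.00206 over all kept rows. The range ran from -0.10 for WDR12 to 0.35 for UBTF. Every Stau1 array lay above every control array for 4 of the 40 rows (10%; 4.51% of all kept rows), namely UBTF, TAF1C, HEATR1 and RRS1, and none lay entirely below (3.4% of all kept rows).

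Confidence intervals of the measured differences were tighter over these rows than over all kept rows. The 95% confidence interval from limma stayed within a 1.5-fold change in either direction for 38 of the 40 rows (95%), against 87.0% of all kept rows. The exceptions were UBTF, whose interval reached 0.67 on the log2 scale, and PES1, whose interval reached 0.63. The 38 include NPM1, a row near background, whose interval bounds the measured value and not a change of the transcript. For other dim rows the interval depended on how the background was estimated. With the background from all rows, TCOF1 went from 0.25 (SE 0.15) to 0.01 (SE 0.0086). TAF1A went from -0.09 (SE 0.17) to -0.0085 (SE 0.0146). UBTF, among the rows within a 2-fold change below, is dim as well. All 40 stayed within a 2-fold change, as did 99.6% of all kept rows. The median SE was 0.11 over the members and 0.14 over all kept rows, and 29 of the 40 members were among the 4428 brightest kept rows, where the median SE over all rows was 0.11 (0.15 and 0.16 in the equally large middle and dimmest groups).

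**Figure D1:**
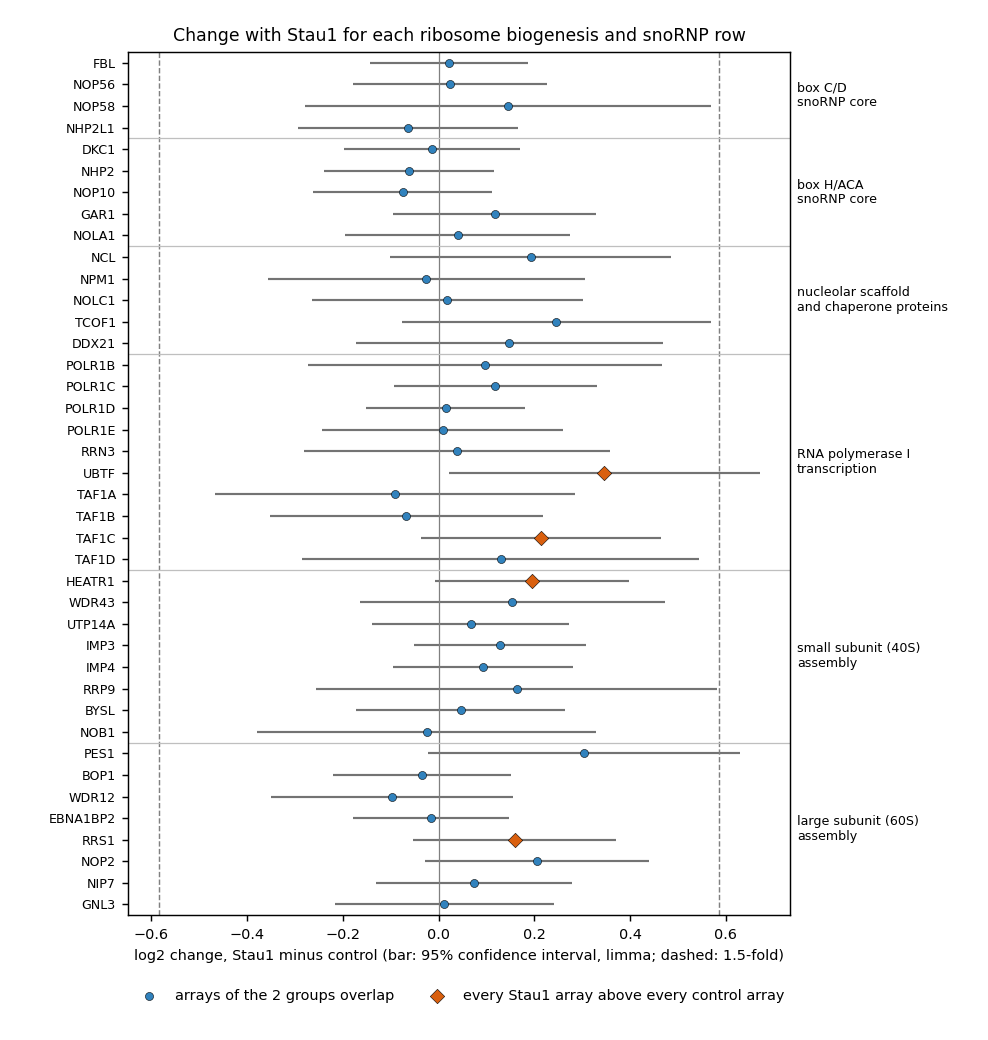
Log2 change (Stau1 minus control, horizontal axis) of each of the 40 kept rows, grouped by role, with the 95% confidence interval from limma as a bar and 1.5-fold in either direction as dashed lines. Diamonds mark the 4 rows whose Stau1 arrays all lay above the control arrays; the intervals of UBTF and PES1 pass the right dashed line, and only that of UBTF leaves out 0 before adjustment.

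**Figure D2:**
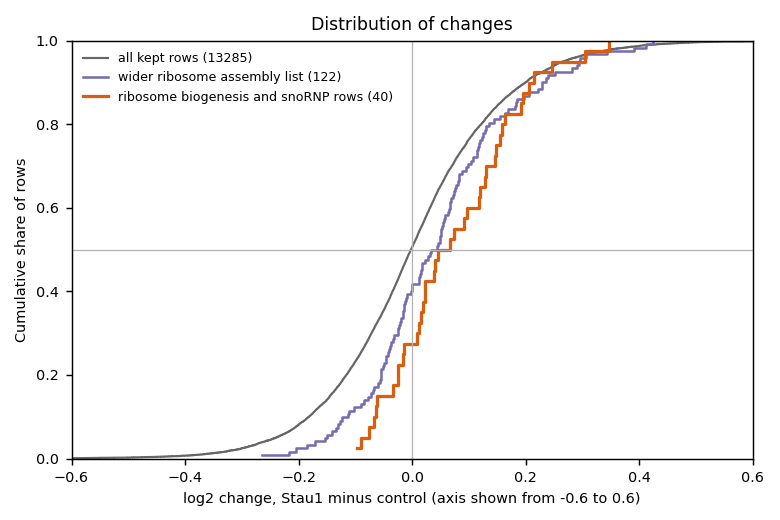
Cumulative share of rows (vertical axis) with a log2 change (Stau1 minus control) at or below the value on the horizontal axis, for the 40 member rows, 122 rows of a wider ribosome assembly list and all 13285 kept rows. The member curve lies to the right of the curve of all rows around its middle (medians 0.06 and -0.00206) and spans a narrower range.

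Factors of RNA polymerase I transcription held the row with the highest change. UBTF, the factor that binds along the ribosomal genes, read 5.95, 5.75 and 6.13 on control replicates 1 to 3 and 6.36, 6.21 and 6.31 on Stau1 replicates 1 to 3. All Stau1 arrays were therefore above all control arrays, by a difference of 0.35 (log2, SE 0.15, limma, adjusted p = 0.999). UBTF was a dim row that averages several probes, with a deposited intensity of 114.8 to 160.2 on arrays whose background averaged 74.6 to 92.7, and its detection p was under 0.05 on 5 of the 6 arrays. Its difference was 0.02 (SE 0.0094) when the background was estimated from all rows, including those that average several probes. The difference and the SE of this dim row both shrank there, with a limma unadjusted p of 0.042 against 0.039. TAF1C, a subunit of the promoter selectivity factor, read 9.14, 8.99 and 9.19 in control and 9.34, 9.24 and 9.38 in Stau1 arrays. It also averages several probes, with a detection p under 0.05 on 5 of the 6 arrays. Control replicate 1 was the exception, at a deposited intensity of 499.4, far above background. Here too the groups did not overlap, with a difference of 0.21 (log2, SE 0.12, limma, adjusted p = 0.999). The other subunits of that factor did not share this order: TAF1A had a change of -0.09, TAF1B of -0.07 and TAF1D of 0.13, each with overlapping groups.

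POLR1A, the largest catalytic subunit of the polymerase, was not kept. Its normalized values were 5.07, 4.86 and 5.39 in control and 5.13, 5.24 and 5.39 in Stau1 arrays, and its deposited intensity of 80.5 to 119.7 was detected on 1 array, control replicate 3. These values are close to the background on every array and were not tested. The second largest subunit POLR1B had a change of 0.10, POLR1C and POLR1D, which RNA polymerase III shares, had changes of 0.12 and 0.02, and POLR1E, a subunit of the polymerase's own initiation module, had 0.01. RRN3, the initiation factor, had 0.04. Of the 10 kept rows of this role 8 were above 0 and the median was 0.07. Without control replicate 1, 3 of the 10 were above 0 and the median was -0.07.

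**Figure D3:**
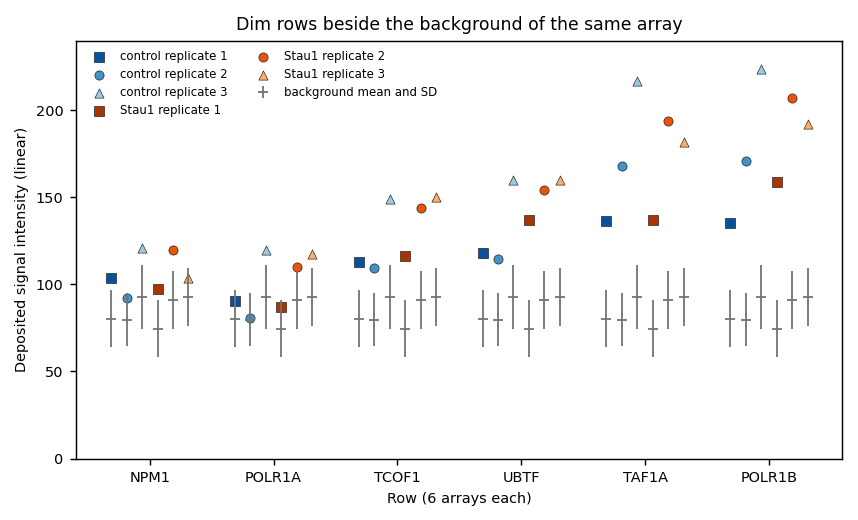
Deposited signal intensity (vertical axis, linear, not normalized) of 6 dim rows on each of the 6 arrays, beside the background mean of the same array with its SD in grey, as estimated from detection p-values. NPM1 and POLR1A lie within or just above the background spread, TCOF1 and UBTF a little above it, and TAF1A and POLR1B further above.

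Proteins of the small subunit's processing complexes had the most one-sided changes. HEATR1, a large scaffold of the early 40S precursor that also acts in transcription of ribosomal DNA, read 11.43, 11.61 and 11.71 in control and 11.76, 11.78 and 11.79 in Stau1 arrays. The 3 Stau1 values were close together and all above the controls, the nearest of which was control replicate 3. The difference was 0.20 (log2, SE 0.09, limma, adjusted p = 0.999), and 0.12 without control replicate 1. WDR43, of the same early complex, had a change of 0.15 and UTP14A, a later-acting partner of the helicases, 0.07. IMP3 and IMP4, which help the U3 snoRNA pair with the precursor, had changes of 0.13 and 0.09, and RRP9, a protein of the U3 snoRNP itself, had 0.16. BYSL, an assembly factor that travels with the precursor, had 0.05. NOB1, the endonuclease that makes the final cut of the small subunit RNA, had -0.02 and was the 1 row of these 8 below 0. The median of the role was 0.11 (0.07 without control replicate 1), and control replicate 2 was the lowest array for 5 of its 8 rows. Without control replicate 2 no member was called either, as with all arrays. That count does not show how far these changes rest on control replicate 2. HEATR1 had a change of 0.21 without control replicate 2. Over all 40 members the median without it was 0.05, with 29 above 0.

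Large subunit factors were more divided. PES1, BOP1 and WDR12 form one complex needed for processing of the large subunit RNA, yet their changes were 0.30, -0.03 and -0.10. PES1 read 7.77, 7.56 and 7.99 in control and 8.16, 7.94 and 8.14 in Stau1 arrays. Only Stau1 replicate 2 lay below the highest control, control replicate 3 (difference 0.30, log2, SE 0.15, limma, adjusted p = 0.999). Its difference was 0.07 (SE 0.04) with the background estimated from all rows. RRS1, which helps bring the 5S RNA particle into the subunit, read 10.33, 10.23 and 10.33 in control and 10.42, 10.42 and 10.52 in Stau1 arrays. The groups did not overlap and the difference was 0.16 (log2, SE 0.10, limma, adjusted p = 0.999). NOP2, an RNA methyltransferase, had 0.21, NIP7 0.07, GNL3 (nucleostemin, a GTP-binding protein of the nucleolus) 0.01 and EBNA1BP2 -0.02. The median of the 8 kept rows was 0.04, with 5 above 0, and without control replicate 3 it was 0.01, with 4 above 0.

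Core proteins of the snoRNPs lay on both sides of 0, with 3 of 4 box C/D rows (median 0.02) and 2 of 5 box H/ACA rows (median -0.01) above it. These 2 H/ACA rows both belong to the gene GAR1, and the rows of DKC1, NHP2 and NOP10 were below 0. Without control replicate 1 the box C/D median was -0.02, and without control replicate 3 it was 0.06 and that of box H/ACA -0.04. FBL, the methyltransferase fibrillarin, read 13.27, 13.18 and 13.19 in control and 13.31, 13.17 and 13.23 in Stau1 arrays. The groups overlapped fully and the difference was 0.02 (log2, SE 0.08, limma, adjusted p = 0.999, 95% interval -0.14 to 0.19). DKC1, the pseudouridine synthase dyskerin, read 12.87, 13.10 and 13.05 in control and 12.91, 13.06 and 13.00 in Stau1 arrays. Its difference was -0.01 (SE 0.09, limma, 95% interval -0.20 to 0.17), again with full overlap. Of the other box C/D proteins, NOP56 had a change of 0.02 and NHP2L1 (now SNU13, the protein that binds the snoRNA's kink-turn) -0.06. Of the other box H/ACA proteins, NHP2 had -0.06 and NOP10 -0.08.

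The rows of GAR1, the H/ACA protein that helps release the modified RNA, carry definitions of transcript variants 1 (GAR1) and 2 (NOLA1). The first read 11.74, 11.98 and 12.03 in control and 12.11, 11.93 and 12.05 in Stau1 arrays, a difference of 0.12 (SE 0.10, limma, adjusted p = 0.999), and 0.03 without control replicate 1. The second had a change of 0.04, and both rows had overlapping groups.

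NOP58, the partner of NOP56 in the box C/D core, had the widest spread among the control arrays. It read 10.07, 10.86 and 11.08 in control and 10.89, 10.91 and 10.64 in Stau1 arrays. Control replicate 1 was 0.57 below the next lowest array, and the other 5 arrays overlapped. The difference of 0.15 (log2, SE 0.20, limma, adjusted p = 0.999) turned to -0.15 without control replicate 1.

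Scaffold and chaperone proteins of the nucleolus had 4 of 5 rows above 0 and a median of 0.15, which was 0.03 without control replicate 1. NCL, nucleolin, which binds the ribosomal precursor, read 11.75, 12.09 and 12.39 in control and 12.14, 12.43 and 12.24 in Stau1 arrays. The groups overlapped, and the controls alone spanned a wider range than the Stau1 arrays. The difference of 0.19 (log2, SE 0.14, limma, adjusted p = 0.999) was 0.03 without control replicate 1 and 0.35 without control replicate 3. TCOF1, treacle, a scaffold of ribosomal DNA transcription, read 5.77, 5.60 and 5.95 in control and 5.90, 6.02 and 6.14 in Stau1 arrays. Stau1 replicate 1 lay below control replicate 3, and the difference was 0.25 (SE 0.15, limma, adjusted p = 0.999). With the background estimated from all rows the difference was 0.01 (SE 0.0086). DDX21, an RNA helicase of ribosomal RNA transcription and processing, had a change of 0.15 and NOLC1, a chaperone of snoRNPs, of 0.02.

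NPM1, nucleophosmin, is an abundant nucleolar chaperone, but its row was near background. It read 5.46, 5.13 and 5.42 in control and 5.39, 5.48 and 5.07 in Stau1 arrays, for a difference of -0.03 (SE 0.15, limma, adjusted p = 0.999). The deposited intensity was 92.3 to 121.0 and the detection p was under 0.05 on 4 arrays. The table defines this row by transcript variant 2, and which other forms of the transcript its probe reads was not analysed.

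**Figure D4:**
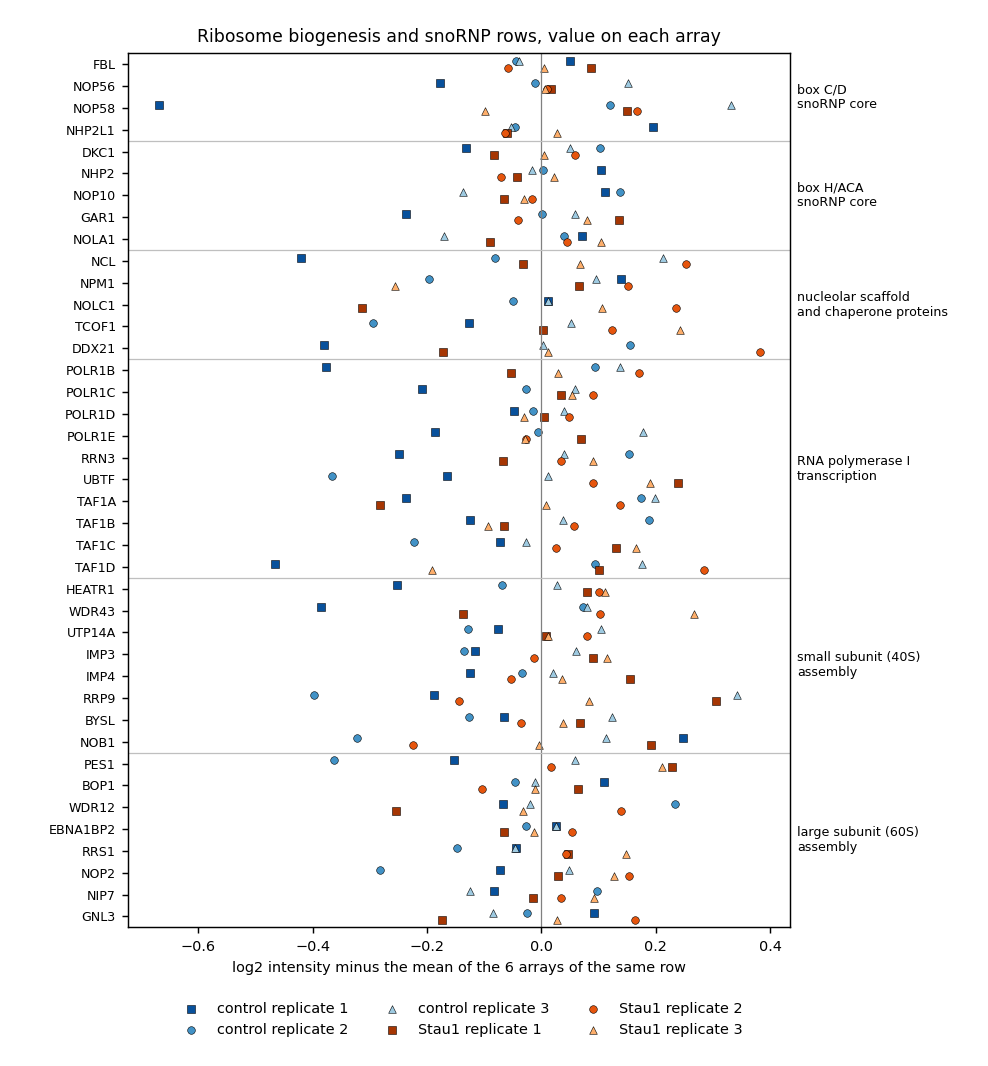
Log2 intensity on each array minus the mean of the 6 arrays of the same row (horizontal axis), for the 40 kept rows grouped by role; blue symbols are control and orange symbols Stau1 replicates. Control replicate 1 (dark blue squares) lies far to the left for NOP58, NCL, DDX21, POLR1B, TAF1D and WDR43, while most other rows are within 0.3 of their mean.

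Members also differed between the arrays of a group. Over the 40 rows the median deviation from the row's mean over arrays was -0.12 on control replicate 1, -0.03 on control replicate 2 and 0.04 on control replicate 3, and 0.01, 0.05 and 0.03 on Stau1 replicates 1 to 3. Control replicate 1 was the lowest of the 6 arrays for 16 of the 40 rows (40%), against 25.5% of all kept rows, and for 7 of the 10 kept rows of RNA polymerase I transcription. Stau1 replicate 2 was the highest array for 11 rows (27.5%), against 11.7% of all kept rows, and for 4 of the 5 scaffold and chaperone rows. Across all kept rows control replicate 1 also stood furthest from the rest, with a correlation of 0.987 to 0.991 with the other arrays. Within the control group the median SD of the members was 0.15 and within the Stau1 group 0.08, against 0.17 and 0.12 over all kept rows.

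Genes that carry snoRNAs held several of the largest gaps of control replicate 1 below the other arrays. Many vertebrate snoRNAs are cut from the introns of genes for nucleolar and translation proteins. In the RefSeq annotation (GRCh38.p14) 7 of the 40 member genes (17.5%) had snoRNA genes nested within them, against 526 of 20056 protein-coding genes (2.62%). They were NOP56 with 5, NOP58 with 4, DKC1 with 2, NCL with 3, TAF1D with 8, WDR43 with 3 and GNL3 with 5. Control replicate 1 was the lowest array for 6 of these 7, GNL3 being the exception, and for 10 of the other 33 kept rows. Its log2 intensity minus the median of the other 5 arrays had a median of -0.46 over the 7 and of -0.12 over the 33. Among the 321 kept rows of other genes with nested snoRNAs, control replicate 1 was lowest for 31.2% and the same median was -0.02. The array lay 0.57 below the next lowest for NOP58, 0.34 for NCL, 0.27 for TAF1D, 0.25 for WDR43, 0.17 for NOP56 and 0.05 for DKC1. DDX21, with no nested snoRNA, had a gap of 0.21 and POLR1B one of 0.32. The split by nested snoRNAs was chosen after these values were seen, control replicate 1 is a single sample, and where the probes lie in the genes was not analysed.

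**Figure D5:**
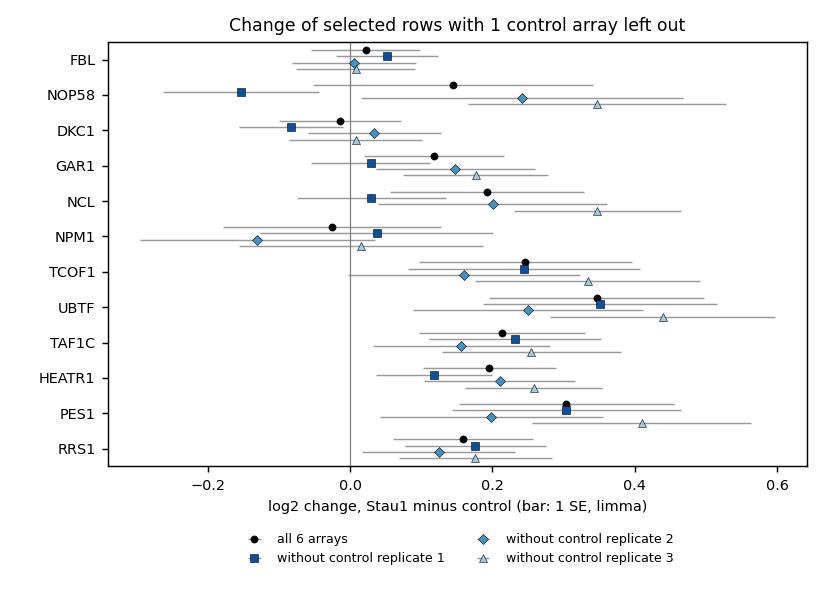
Log2 change (Stau1 minus control, horizontal axis) with its SE from limma for 12 kept rows described in full, with all 6 arrays and with each control array left out. NOP58 moves from 0.15 to -0.15 without control replicate 1 and to 0.35 without control replicate 3, while TAF1C and RRS1 move by less than 0.1.

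The size of the shift depended on which control arrays were used. Without control replicate 1 the median change of the 40 rows was 0.03 with 25 rows above 0, and without control replicate 3 it was 0.11 with 30 rows above 0. Leaving out control replicate 2 lowered the changes of UBTF (to 0.25), PES1 (0.20), TCOF1 (0.16), TAF1C (0.16), RRS1 (0.12) and FBL (0.0055). It raised those of NOP58 (to 0.24), HEATR1 (0.21), NCL (0.20) and GAR1 (0.15), and gave 0.03 for DKC1 and -0.13 for NPM1. Without control replicate 3 limma called 39 of all 13285 kept rows (0.294%) and 0 members. The lowest adjusted p among members was then 0.257, for NCL, and 7 member rows had an unadjusted p under 0.05 (NCL, UBTF, HEATR1, PES1, NOP2, IMP3 and RRP9), beside 1693 of all kept rows. All 7 had higher values in the Stau1 arrays. Of the 40 rows 17 kept 1 direction in every setting run and 23 did not. No member was called in any of the 17 alternative settings or array sets.

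A wider list of ribosome assembly factors also had no called row. It held other RNA polymerase I subunits, snoRNP assembly factors, 40S and 60S factors and the nuclear exosome, with 122 of 128 rows kept. Of the rows left out, RPAP3, UTP3, BMS1, RIOK1 and XRN2 average several probes and read 8.63 to 10.45, so their loss does not mean a dim signal. ESF1, a row of 1 probe, read 4.78 to 5.09. Limma called 0 of the 122 with all arrays (0% of all kept rows) and 0 with any 1 array left out. The median change was 0.04, and 71 of the 122 were above 0 (58.2%). At a limma unadjusted p under 0.05, 5 of the 122 were higher, beside 2.4% of all kept rows. At that level 0 were lower, beside 1.32% of all kept rows. These 5, named after their values were seen, were SENP3, which trims SUMO from large subunit factors, with a change of 0.42, the helicase DHX37 of the small subunit with 0.41, the AAA-type ATPase MDN1 of the large subunit with 0.39, the small subunit export factor RRP12 with 0.34 and RRP1B with 0.31. All Stau1 arrays were above all control arrays for 8 of the 122 (6.56%, against 4.51% of all kept rows). They were below for 0, against 3.4% of all kept rows. Among its groups, 60S factors had a median of 0.05, 40S factors of 0.05, other polymerase I subunits of 0.05, the exosome of -0.01 and snoRNP assembly factors of -0.01. These medians also moved with single control arrays. That of the whole list was 0.03 without control replicate 1 and 0.07 without control replicate 3. Without control replicate 1 that of the 40S factors was 0.00188, with 20 of 40 above 0, and that of the 60S factors was 0.03. The snoRNP assembly factors then had a median of 0.04 and the exosome of 0.00869, both on the other side of 0. Without control replicate 3 the other polymerase I subunits had a median of 0.02, the 60S factors of 0.08, the 40S factors of 0.08, the exosome of 0.02 and the snoRNP assembly factors of -0.02.

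The annotation column of the table gave another grouping, chosen after the data were seen. Of the 40 kept members 15 (37.5%) were annotated to the nucleolus there, against 2.67% of all kept rows. Outside the members 340 kept rows carried that annotation. Their median change was 0.03, 57.4% were above 0, all Stau1 arrays were above all control arrays for 21 (6.18%; 4.51% of all kept rows), and the reverse held for 9 (3.4% of all kept rows). Without control replicate 1 the median of these 340 was 0.00491 and 175 were above 0, where 195 had been with all arrays. At a limma unadjusted p under 0.05 with all arrays, 14 were higher (2.4% of all kept rows) and 2 lower (1.32% of all kept rows). Limma called 0 of the 340 with all arrays. It called 1 without control replicate 3, where 0.294% of all kept rows were called. RefSeq lists HSPC111 as an older name of NOP16 and D21S2056E as one of RRP1, and both names have rows that the member names did not reach. HSPC111 had a change of -0.01 (limma, adjusted p = 0.999) and D21S2056E was detected on no array.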

How the data were processed

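Total RNA of 6 HEK293T samples (3 control, 3 Stau1, grouped by the transfection in the labels) was read on Illumina HumanWG-6 v3 BeadChips. The deposited table was a BeadStudio gene profile, so each row is a mean over the probes of a gene. The authors deposited signal intensity that was neither background-subtracted nor normalized, with a bead standard error in intensity units. The detection p-value was deposited beside each intensity, for rows of several probes as a combined value. The mean bead number, a signal column of bead coverage, was deposited as well. The correction and spline normalization in the methods were stated for immunoprecipitated RNA and are not in these values.

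Intensities were corrected with normexp (limma 3.58.1, R 4.3.3; offset 16; background from detection p-values of 30932 rows of 1 probe, means 74.6 to 92.7, SD 15.2 to 18.2), quantile normalized and put on the log2 scale. Rows with detection p under 0.05 on at least 3 arrays were kept. Groups were compared with limma (lmFit, eBayes with a variance trend), adjusted by Benjamini-Hochberg over all kept rows at 0.05. The number of arrays, 3 a group, limits the precision. Members and gene lists were chosen with earlier results of these data known. By rule, values on every array are printed for the member with the lowest p in each role, members whose groups do not overlap or that are called with 1 array left out, and FBL, DKC1, NCL, NPM1, UBTF and POLR1A. Alternatives changed the background (none, or from all rows), the offset (50), the normalization (median scaling or cyclic loess), the filter (none, or 0.01 on all arrays), the variance model (array weights, no trend, replicate block), the test (the methods' t-test) and the arrays (each left out in turn). RefSeq tables (GRCh38.p14) gave current names, promoter windows and nested snoRNA genes (pandas 2.3.3; figures matplotlib 3.10.9); coordinates refer to them alone, since the array table names no build.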

Additional observations from a re-analysis of the deposited data

How the results depend on the processing

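The count of called member genes and of called wider list genes was 0 in every alternative run. Over all genes tested the count was 0 in every alternative except without control replicate 3, where it was 39 (0 to 39 over the 6 fits with 1 array left out). The median change over members was 0.03 to 0.11 with 1 array left out and 0.14 with median scaling (0.145 before rounding), a scaling that moved the median of all genes to 0.07. Its lowest value, 0.0253, came with the background estimated from all rows. The STAU1 change was 0.09 to 0.18 with 1 array left out and 0.13 to 0.24 in the other settings; it had no value under detection p under 0.01 on all arrays, which left it out. Among the 12 kept genes described in full, directions turned for NOP58, NPM1, DKC1 and FBL, none of them called. DKC1 was 0.0526 with median scaling, and NOP58 was -0.0372 with array weights. With 1 array left out, NOP58 ran from -0.15 to 0.35, NPM1 from -0.13 to 0.10, DKC1 from -0.0828 to 0.0339 and FBL from -0.0161 to 0.0571. The cause was not tested. Same-numbered arrays deviated from their group means with correlations of 0.02, 0.26 and -0.14 (numbers 1 to 3), so the replicate numbers were not read as pairs. The replicate block left the member median at 0.06 and called 0 genes, with 2 members and 604 of all genes at an unadjusted p under 0.05 (1 and 495 without it). Array weights gave 8 members and 1298 genes at that level and called 0. Over settings with all arrays that number ran from 229 of 13285 genes with median scaling to 1564 of 37879 with no filter. Settings with another filter tested another number of genes. Rows near background, such as NPM1 and POLR1A, set no limit on a change of the transcript.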
